A study of Mus musculus with 2 samples.

Results

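The trophectoderm transcription factors are 10 genes, Cdx2, Eomes, Elf5, Gata2, Gata3, Tfap2a, Tfap2c, Tead4, Hand1 and Dlx3, out of 43629 genes listed in the count data. They were chosen by name for their known roles in the trophectoderm and its descendants, and every one had a row in both libraries. The choice of the factors, and of the gene lists set beside them, was made with earlier results of these data known. The data were polyA RNA-seq counts from 2 libraries of Dicer knockout mouse embryonic stem cells (Dicer_KO mESCs), replicate 1 at passage 7 and replicate 2 at passage 4, both of a 129/Ola background with blastocyst given as the tissue. Both came from the E14TG2a line, a male mESC line grown in serum with leukemia inhibitory factor, in which Cas9 with paired guides cut out pieces of Dicer1, and the edited cells were sorted as single cells, so a line descends from 1 cell. The study made 2 independent knockout lines with different deletions and reports RNA sequencing of both. The labels do not give the deletion carried by each library, and line, passage and library cannot be told apart here. Wild-type libraries were not analysed here, so each value below is a level in Dicer_KO mESCs or a difference between the Dicer_KO libraries, and none is an effect of Dicer loss.

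The trophectoderm is the outer epithelium of the blastocyst and the source of the trophoblast cells of the placenta. It forms when TEAD4, bound by the coactivators YAP1 and WWTR1 in outer cells, switches on Cdx2 and Gata3, while Hippo signalling keeps these coactivators out of the nucleus in inner cells. CDX2, EOMES, ELF5 and the AP-2 factors then hold trophoblast stem cells in their state, and HAND1 and DLX3 act in their differentiated offspring. mESCs descend from the inner cell mass, where this program is shut and pluripotency factors such as POU5F1 are active. Dicer cuts microRNA precursors into mature microRNAs.

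The libraries held 41710122 counts in replicate 1 and 41566184 in replicate 2, so 3 counts, the limit that a count of 0 allows, corresponded to 0.0719 and 0.0722 CPM, counts scaled to a library total of 1000000. Dicer1 had 1343 counts in replicate 1 and 1510 in replicate 2, which is 32.2 and 36.3 CPM. Its count covers the whole gene, exons outside the deletions included, so it does not check the genotype. The ratio between the libraries was taken after TMM scaling, which multiplied the counts of replicate 2 by 1.09 relative to those of replicate 1, with 1 added to each scaled count. It was computed for the 17788 genes averaging 10 counts or more. With 1 library per passage no test of a difference between the libraries exists, and the 95% intervals given with values cover counting error only.

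Of the 10 factors, 2 were abundant, 7 were low and 1 was near the limit of detection. Tead4 and Tfap2c together held 83.2% of the factors' 7997 counts in replicate 1 and 92.4% of their 4564 counts in replicate 2. The next most abundant factors by CPM, Eomes and Gata2, did not reach 9 CPM in either library. At 1 CPM or more in both libraries, the detection limit used here, 4 of 10 factors were found (Eomes, Gata2, Tfap2c and Tead4), beside 31.7% of all listed genes. In replicate 1 alone 9 of 10 passed, and in replicate 2 alone the same 4. The 5 factors that passed in replicate 1 only were Elf5, Gata3, Tfap2a, Hand1 and Dlx3. The share of all genes at 1 CPM in each library alone was not computed. At 10 counts or more, 17819 listed genes were found in replicate 1 and 17461 in replicate 2. In a bulk library, fewer cells of a type and less RNA per cell cannot be told apart, so a low level may be spread over many cells or held by few.

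**Figure D1:**
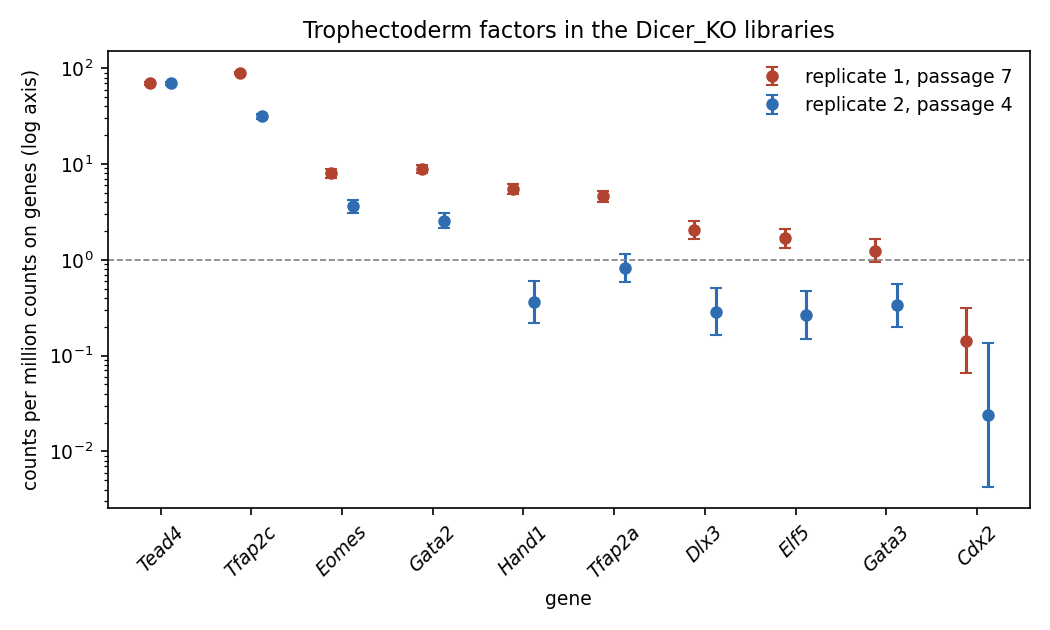
Level of each trophectoderm factor, in CPM (log axis), in Dicer_KO replicate 1 (red, passage 7) and replicate 2 (blue, passage 4), with 95% Wilson intervals of the count and a dashed line at 1 CPM. Tead4 lies at 69.9 and 70.0 CPM, Cdx2 is lowest in both libraries, and the other 8 factors lie higher in replicate 1.

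Tead4 (ENSMUSG00000030353, chr6:128224288-128300823 on the minus strand of GRCm38), the TEA-domain factor at the top of the pathway, had 2915 counts in replicate 1 and 2908 in replicate 2. These are 69.9 CPM (95% Wilson interval 67.4 to 72.5) and 70.0 CPM, a mean of 69.9 ± 0.052 CPM (SD, n = 2). The libraries thus held nearly equal levels, and the log2 ratio (replicate 1 over replicate 2) was -0.12 (95% counting interval -0.19 to -0.04), a small difference that lies at about 0 with scaling by total counts. Tead4 stood at the 87.5th percentile of 21551 protein-coding genes by mean level per kilobase of exon.

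Tfap2c (ENSMUSG00000028640, chr2:172549593-172558622, plus strand) encodes AP-2 gamma, which acts in trophoblast and also in germ cells and naive pluripotency. It had 3742 counts, 89.7 CPM (86.9 to 92.6), in replicate 1 and 1311 counts, 31.5 CPM (29.9 to 33.3), in replicate 2. It was the most abundant factor by CPM in replicate 1 and ranked below Tead4 in replicate 2. Its level was 2.62-fold higher in replicate 1, a log2 ratio of 1.39 (1.30 to 1.48).

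Tfap2a (ENSMUSG00000021359, chr13:40715302-40738376, minus strand), which encodes AP-2 alpha, had 192 counts, 4.6 CPM (4.00 to 5.30), in replicate 1 and 34 counts, 0.818 CPM (0.585 to 1.14), in replicate 2. It was thus above 1 CPM in replicate 1 and at about that limit in replicate 2. The log2 ratio was 2.34 (1.84 to 2.95), or 5.08-fold, larger than that of Tfap2c, whose counting interval it did not overlap.

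Cdx2 (ENSMUSG00000029646, chr5:147300805-147307270, minus strand), the caudal-type homeobox factor that defines the trophectoderm, had 6 counts in replicate 1 and 1 count in replicate 2. These are 0.144 CPM (0.0659 to 0.314) and 0.0241 CPM (0.00425 to 0.136), at about the level of 3 counts. The interval of its log2 ratio ran from -0.58 to 7.99, so a difference between the libraries was not detectable at this depth, and Cdx2 was the 1 factor without a ratio below. It was also the lowest of the 10 in both libraries.

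Eomes (ENSMUSG00000032446, chr9:118478212-118486132, plus strand) encodes a T-box factor needed for trophoblast stem cells and later for mesoderm and endoderm. It had 334 counts, 8.01 CPM (7.19 to 8.91), in replicate 1 and 151 counts, 3.63 CPM (3.10 to 4.26), in replicate 2. Among the 8 factors that were higher in replicate 1, Eomes had the smallest difference, a log2 ratio of 1.02 (0.74 to 1.31). Its counting interval reached below a 2-fold difference.

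Elf5 (ENSMUSG00000027186, chr2:103411688-103450989, plus strand) encodes an ETS factor that, with Cdx2 and Eomes, sustains trophoblast stem cells and whose promoter is known to be kept methylated in mESCs. It had 70 counts, 1.68 CPM (1.33 to 2.12), in replicate 1 and 11 counts, 0.265 CPM (0.148 to 0.474), in replicate 2. The log2 ratio was 2.45 (1.62 to 3.61), or 5.47-fold. Elf5 rested on few counts in both libraries, so its ratio was measured less precisely than those of Tfap2c and Gata2.

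Gata3 (ENSMUSG00000015619, chr2:9857078-9890034, minus strand), a zinc finger factor downstream of TEAD4, had 52 counts, 1.25 CPM (0.951 to 1.64), in replicate 1 and 14 counts, 0.337 CPM (0.201 to 0.565), in replicate 2. Its log2 ratio of 1.71 had a wide counting interval, 0.90 to 2.74, which reached just below a 2-fold difference. Gata2 (ENSMUSG00000015053, chr6:88193891-88207032, plus strand), which acts beside Gata3 in trophoblast and also in blood progenitors, was more abundant. It had 371 counts, 8.90 CPM (8.04 to 9.85), in replicate 1 and 107 counts, 2.57 CPM (2.13 to 3.11), in replicate 2, a log2 ratio of 1.66 (1.36 to 2.0). The ratios of the GATA factors lay close together, with intervals that overlapped widely, and Gata2 was the higher of the pair in both libraries.

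Hand1 (ENSMUSG00000037335, chr11:57828705-57832818, minus strand), a basic helix-loop-helix factor of trophoblast giant cells and of heart and extraembryonic mesoderm, differed most between the libraries. It had 229 counts, 5.49 CPM (4.82 to 6.25), in replicate 1 and 15 counts, 0.361 CPM (0.219 to 0.596), in replicate 2. The log2 ratio was 3.73 (3.06 to 4.67), or 13.3-fold, and 0.416% of the genes measured had a higher one. Dlx3 (ENSMUSG00000001510, chr11:95120119-95125296, plus strand), a distal-less homeobox factor of the placental labyrinth, had 86 counts, 2.06 CPM (1.67 to 2.55), in replicate 1 and 12 counts, 0.289 CPM (0.165 to 0.505), in replicate 2. Its log2 ratio was 2.63 (1.84 to 3.73), or 6.19-fold, and its interval overlapped that of Hand1.

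The difference between the libraries ran mostly in 1 direction. Of the 9 factors averaging 10 counts or more, 8 were more than 2-fold higher in replicate 1, none was more than 2-fold lower, and Tead4 was within 2-fold. Over all genes measured, 14.2% were more than 2-fold higher in replicate 1 and 7.14% more than 2-fold lower. Because low counts scatter more, the share was also taken among genes whose mean counts lay within the factors' range, 33 to 2911.5 counts, an alternative chosen after the data were seen. There 15.6% of genes were more than 2-fold higher in replicate 1. For 6 of the 9 the whole counting interval lay beyond 2-fold, the exceptions being Tead4, Eomes and Gata3. The same held for 8.55% of all genes measured and 10.8% of those in the factors' count range. Hand1, Dlx3, Elf5 and Tfap2a were more than 4-fold higher, beside 4.17% of all genes measured. The median log2 ratio of the 9 was 1.71, beside 0.02 over all genes measured and 0.10 over genes in the same count range. A single library at each passage gives no spread between cultures, and the factors were chosen with earlier results of these data known. These counts thus describe the pair of libraries.

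**Figure D2:**
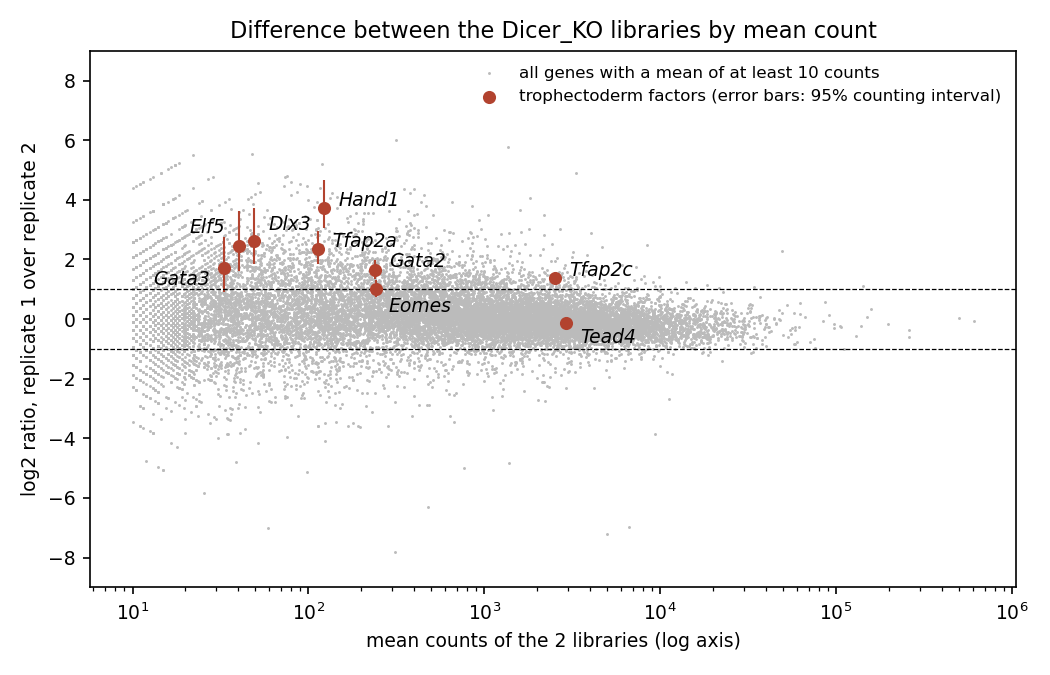
Log2 ratio of replicate 1 over replicate 2 (vertical axis, TMM-scaled counts plus 1) against the mean counts of both libraries (log axis) for the 17788 genes measured (grey) and the 9 trophectoderm factors among them (red, with 95% counting intervals), with dashed lines at 2-fold. Of the 9 points, 8 lie above the upper line, Eomes just above it, and Tead4 lies at -0.12.

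In CPM divided by the kilobases of exon (RPKM), the order of the factors by mean level was Tead4, Tfap2c, Hand1, Eomes, Gata2, Tfap2a, Dlx3, Gata3, Elf5 and Cdx2. Tead4 stood at 19.4 RPKM in both libraries and Tfap2c at 24.4 and 8.57 RPKM in replicates 1 and 2. Hand1 had 2.75 and 0.181 RPKM, and so held the 3rd place in replicate 1 and the 5th in replicate 2. The only neighbours in this order whose values did not overlap between the libraries were Tfap2c and Hand1. Everything below Tfap2c thus formed an overlapping series, down to Cdx2 at 0.0636 and 0.0106 RPKM. Tfap2a, Dlx3, Gata3, Elf5 and Cdx2 nevertheless held places 6 to 10 in the same order in both libraries.

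Sequence is shown for promoters of 3 of the factors, Gata3, Elf5 and Cdx2, which carry matches for the binding letters of other factors described here. Windows of Gata2 and Tfap2a and the second Elf5 window held such matches too and are not shown. Windows run from 250 bases before to 50 bases after an annotated start, 5′ to 3′ on the strand of the gene, from RefSeq on GRCm38.p6, and capitals mark the motif matches named after each. Of the 10 factors, 6 matched an entry, with 9 windows in all (Tfap2a, Gata2 and Elf5 have more than 1), and Tfap2c, Tead4, Hand1 and Dlx3 did not match one.
Gata3, chr2:9878551-9878850, minus strand: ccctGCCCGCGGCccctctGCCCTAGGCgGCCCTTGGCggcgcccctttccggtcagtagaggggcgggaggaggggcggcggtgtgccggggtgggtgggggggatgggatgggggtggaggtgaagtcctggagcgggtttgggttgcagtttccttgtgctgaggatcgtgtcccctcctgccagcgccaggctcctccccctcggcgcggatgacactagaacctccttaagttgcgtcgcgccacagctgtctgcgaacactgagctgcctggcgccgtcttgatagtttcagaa
Elf5, first window, chr2:103411848-103412147, plus strand: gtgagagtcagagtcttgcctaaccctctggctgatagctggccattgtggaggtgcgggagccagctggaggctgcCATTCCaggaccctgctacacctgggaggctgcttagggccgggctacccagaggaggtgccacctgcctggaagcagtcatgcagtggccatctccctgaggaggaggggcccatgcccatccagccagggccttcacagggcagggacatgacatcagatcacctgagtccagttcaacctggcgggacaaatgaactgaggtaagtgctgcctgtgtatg
Cdx2, chr5:147307200-147307499, minus strand: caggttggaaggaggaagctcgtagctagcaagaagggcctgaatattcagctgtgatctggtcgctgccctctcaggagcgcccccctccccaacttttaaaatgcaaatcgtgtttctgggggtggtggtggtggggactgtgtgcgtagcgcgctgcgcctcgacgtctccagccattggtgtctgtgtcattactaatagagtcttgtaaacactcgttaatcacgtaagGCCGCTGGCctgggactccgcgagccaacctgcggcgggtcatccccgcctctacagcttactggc

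The letters searched, on both strands, were AGATAA for the Gata factors, GGAATG for the Tead factors, TTTATG for the Cdx factors, GCCNNNGGC for the AP-2 factors and TATAAA for the TATA box. Each was counted on its own, so overlapping matches of different motifs could both count. The Gata3 window held 3 AP-2 letter matches, 246, 231 and 221 bases before the start. The first Elf5 window held 1 TEAD match, on the antisense strand 173 bases before the start, and the Cdx2 window held 1 AP-2 match 16 bases before the start. Over the 9 windows, 3 held the AP-2 letters, 2 the TEAD letters, 2 the CDX letters and 0 the GATA letters or the TATA box. Of all 32851 windows, 16.6% held the AP-2 letters, 14.7% the TEAD letters and 11.9% the CDX letters. The GATA letters were in 11.2% and the TATA box in 13.6%. These shares were not matched for GC content. The windows with AP-2 letters, of Gata2, Gata3 and Cdx2, were 73.7%, 67.3% and 57.3% GC, beside a median of 52.7% over all windows. The first Elf5 window held 3 CpG dinucleotides and the second, not shown, 10, and the Gata3 and Cdx2 windows held 22 and 18, beside a median of 7 over all windows. A match of letters is a description of the window and does not show a bound site.

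Since Dicer_KO mESCs lack the enzyme that makes mature microRNAs, the 3′ untranslated regions (UTRs) of the factors were also searched for sites of miR-295 and miR-16, the microRNAs that the study probed. Mature sequences are from RefSeq, with the seed (bases 2 to 8) in capitals.
mmu-miR-295-3p: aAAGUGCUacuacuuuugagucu
mmu-miR-16-5p: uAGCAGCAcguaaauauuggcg

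The search covered a single transcript per gene, that with the longest coding sequence, so UTRs of other transcripts were not searched. No factor held the site of miR-295-3p, AGCACTT, in the 3′ UTR searched, beside 13.2% of 20302 genes with a 3′ UTR. The site of miR-16-5p, TGCTGCT, occurred in 3 of 10 factors (Tead4, Tfap2a and Cdx2), beside 18.4% of genes. These shares were not matched for UTR length, which ran from 391 to 1540 bases in the factors, beside a median of 800 over all genes. The sites, in capitals within short stretches of the UTR, were these.
Tead4, UTR position 379: ggaacctcacactccTGCTGCTggt
Tfap2a, UTR position 104: accagccactcctacTGCTGCTgct
Cdx2, UTR position 770: aagaccggaattgttTGCTGCTgtt

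In Tfap2a a second copy overlapped the first, 3 bases downstream at position 107. The 3 genes with a miR-16 site included the factor that differed least between the libraries, Tead4, the one with the lowest level, Cdx2, and Tfap2a. MicroRNA levels were not measured in these libraries, and no response to either microRNA can be read from them.

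The closest relatives of the factors showed which member of each DNA-binding family carried the RNA. The 8 families held 22 relatives besides the 10 factors, of which 13 averaged 10 counts or more. Of these 13, 4 were more than 2-fold higher in replicate 1, 3 more than 2-fold lower and 6 within 2-fold. Over all genes measured, 14.2% were more than 2-fold higher and 7.14% more than 2-fold lower. Cdx1, Gata6, Dlx6, Cdx4 and Tbx21, all beyond 2-fold, had fewer than 10 counts in 1 library. They passed the count minimum only through the library where they were high, which favours such calls. The median log2 ratio of the 13 was 0.68, beside 0.02 over all genes measured. Of the 13, Cdx4, Tbx21 and Gata1 lay below 0, so most relatives lay on the same side as the factors.

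In the CDX family, Cdx1 had 76 counts in replicate 1 and 5 in replicate 2 (log2 ratio 3.58), and Cdx4 went the other way, with 9 and 34 counts (-1.93). Both were above Cdx2 in level per length in each library. In the TBR1 subfamily of T-box genes, to which Eomes belongs, Tbx21, a factor of T helper cells, had 7 and 41 counts (-2.51). Tbr1, a factor of cortical neurons, had 3 and 7. Eomes was therefore the most abundant of the 3 genes of this subfamily in both libraries. Other T-box genes were not part of this comparison. Of the epithelial ETS factors, Elf3 was far above Elf5, at 82.1 and 47.1 RPKM beside 0.286 and 0.0450 RPKM, with a log2 ratio of 0.68. Ehf, the gene next to Elf5 in the genome, had 353 and 128 counts (1.34).

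Among the GATA factors, the blood regulator Gata1 was the most abundant in replicate 2, with 205 counts in replicate 1 and 589 in replicate 2 (log2 ratio -1.64), the direction opposite to Gata2 and Gata3. The endoderm regulator Gata4 had 586 and 318 counts (0.76). Gata6, with 16 and 5 counts (1.4), and Gata5, with 4 and 1, were at or near the floor, so the trophectoderm members Gata2 and Gata3 were neither the highest nor the lowest of the family. In the AP-2 family the RNA was nearly all Tfap2c. Tfap2e had 35 and 24 counts (0.41), Tfap2d 1 and 7, and Tfap2b 0 and 1.

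The TEAD factors, which bind the same DNA letters, all lay within 2-fold. Tead1 had 11095 and 9814 counts (log2 ratio 0.05), Tead2 5012 and 3438 (0.42) and Tead3 470 and 242 (0.83). Per length, Tead4 at 19.4 RPKM in both libraries stood beside Tead1 at 19.6 and 17.4 RPKM and Tead2 at 25.1 and 17.3 RPKM. Hand2, the heart and limb relative of Hand1, had 4 counts in each library. Of the DLX factors, which act in forebrain and skeleton as well as placenta, Dlx6 had 23 and 6 counts (1.67), Dlx4 10 and 3, Dlx1 9 and 4, Dlx2 2 and 2 and Dlx5 1 and 0. Dlx3 was thus the most abundant DLX gene in both libraries.

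**Figure D3:**
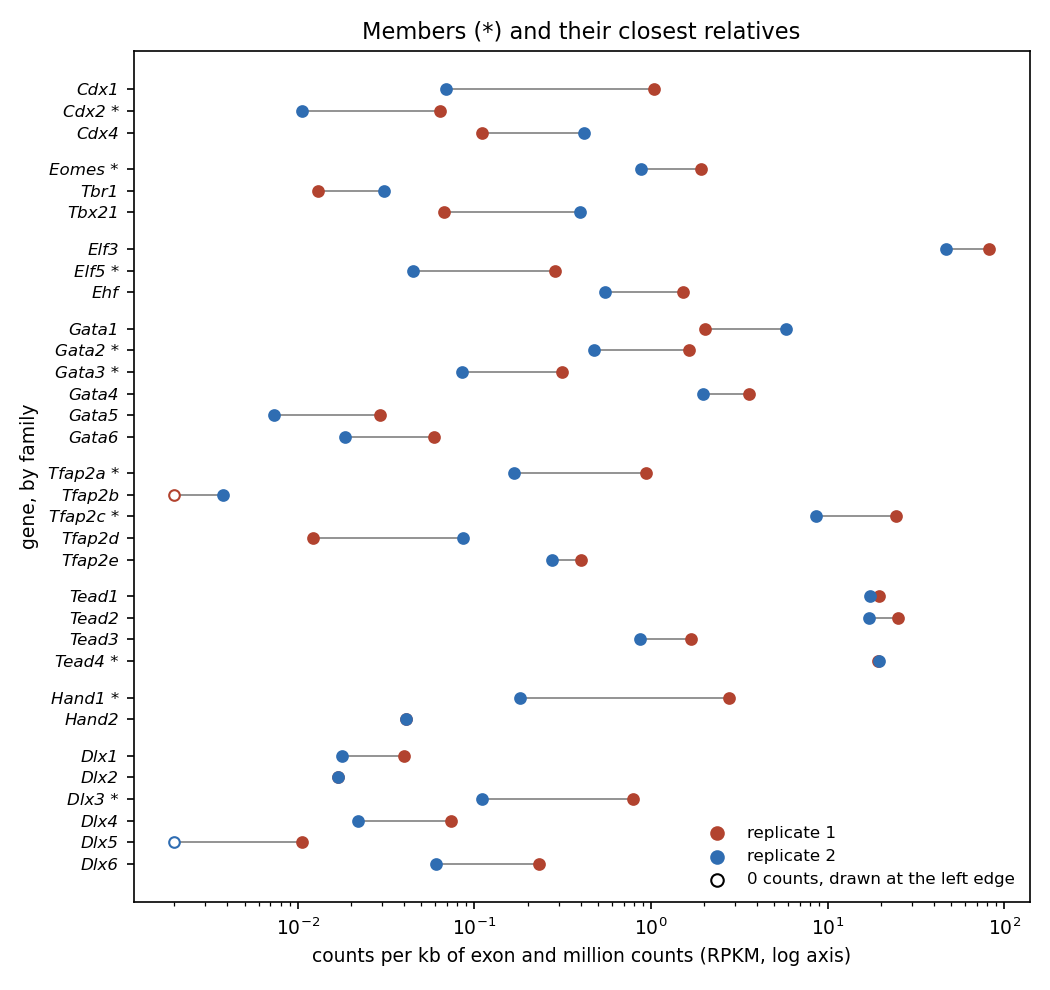
Level in CPM divided by the kilobases of exon (RPKM, log axis) of each trophectoderm factor (marked *) and its closest relatives in replicate 1 (red) and replicate 2 (blue), joined by a line, with open circles for 0 counts. Points coincide for Tead4, Hand2 and Dlx2, and Elf3 at 82.1 and 47.1 RPKM is the highest gene drawn.

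The genes that feed TEAD4 through the Hippo pathway were expressed in both libraries, all 14 of 14 at 1 CPM or more. Their median log2 ratio was -0.05, with 2 genes more than 2-fold higher in replicate 1, 1 more than 2-fold lower and 11 within 2-fold. The most abundant was Nf2, an upstream activator of the kinases, with 15530 and 15876 counts, and the least abundant was Amot, an angiomotin that binds YAP1, with 327 and 178. The 3 genes beyond 2-fold, named after their values were seen, were the kinases Stk3 (3136 and 1121 counts, log2 ratio 1.36) and Lats2 (866 and 2181, -1.45) and the TEAD cofactor Vgll4 (865 and 361, 1.14). Stk3 lies on chromosome 15, where the median log2 ratio of 683 genes was 0.59, and the part of that shift in its ratio was not tested.

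The 12 pluripotency factors all lay within 2-fold, with a median log2 ratio of 0.02. Pou5f1, the core factor of the inner cell mass, was the most abundant, with 39069 and 43025 counts, and Prdm14 the least, with 2547 and 2304. Summed over the lists, the trophectoderm factors came to 3.48% of the CPM of the pluripotency factors in replicate 1 and 2.21% in replicate 2. The sum of the trophectoderm factors, 191.7 and 109.8 CPM, is carried by its abundant members. Without Tfap2c and Tead4, an alternative chosen after the data were seen, it was 32.1 and 8.30 CPM, a 3.87-fold difference in place of 1.75-fold.

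Genes that act downstream of the factors or beside them were split. Of 17 trophoblast stem cell genes with enough counts, of 18 listed, 6 were more than 2-fold higher in replicate 1 and none more than 2-fold lower, with a median log2 ratio of 0.27. The X-linked homeobox genes Rhox6 (1606 and 105 counts, log2 ratio 3.80), Esx1 (949 and 76, 3.50) and Rhox9 (1604 and 215, 2.77) were more than 4-fold higher. Rhox6 and Rhox9 belong to a cluster of similar genes, so the assignment of their reads is uncertain. Sox2, which this list shares with the pluripotency factors as it does Esrrb, was the most abundant (26499 and 21353), and Plac1 the least (16 and 3).

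Among 14 genes of the trophectoderm epithelium, which forms the blastocyst wall, 8 were more than 2-fold higher in replicate 1 and none more than 2-fold lower, with a median log2 ratio of 1.24. Those beyond 4-fold were the intermediate filament genes Krt7 (2674 and 44 counts, log2 ratio 5.77), Krt18 (7162 and 880, 2.90) and Krt8 (8004 and 1370, 2.42) and the desmosome gene Dsp (14380 and 2382, 2.47). Cdh1, E-cadherin, which mESCs also express, was the most abundant and near equal, with 38316 and 34304 counts (0.04), and Dab2 was the least, with 52 and 17. Krt7, Krt8, Krt18 and Dab2 lie on chromosome 15, where the median log2 ratio of 683 genes was 0.59, and the part of that shift in their ratios was not tested. Among the 10 genes elsewhere, 4 were more than 2-fold higher and the median was 0.88. None of the trophectoderm factors is on chromosome 15, and the medians of their 6 chromosomes ran from -0.06 to 0.07.

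Genes of differentiated trophoblast ranged from 0 counts to high levels. Of 17, 7 averaged 10 counts or more, beside 40.8% of all listed genes, and 4 reached 1 CPM in both libraries. Another 5 (Prl3b1, Tpbpa, Synb, Ctsq and Psg21, genes of giant cells, spongiotrophoblast and syncytium) had 0 counts in both libraries, which allows up to 0.0719 and 0.0722 CPM. The share of all listed genes with 0 counts in both libraries was not computed, so this count is a description only. Of the 7, 3 were more than 2-fold higher in replicate 1, none was more than 2-fold lower, and the median log2 ratio was 0.10. The growth factor gene Igf2, which is imprinted and expressed in many embryonic tissues, had 6408 and 197 counts (log2 ratio 4.89). Gcm1, the labyrinth factor, had 36 and 14 (1.19) and Phlda2 922 and 415 (1.03), these genes being named after their values were seen. Peg10 was the most abundant, with 20826 and 27200.

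A list of 12 DNA methylation and chromatin repressor genes lay on the other side of 0, as did most of the neural markers given below. All 12 were lower in replicate 1, with a median log2 ratio of -0.51, and 2 were more than 2-fold lower, beside 7.14% of all genes measured. These were, named after their values were seen, the de novo methyltransferase Dnmt3b (5495 and 17958 counts, -1.83) and its cofactor Dnmt3l, the least abundant of the list (2142 and 5787, -1.56). The most abundant was the remodeller Chd4, with 19862 and 25964 counts. Whether these levels have a part in the factors' ratios was not tested.

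**Figure D4:**
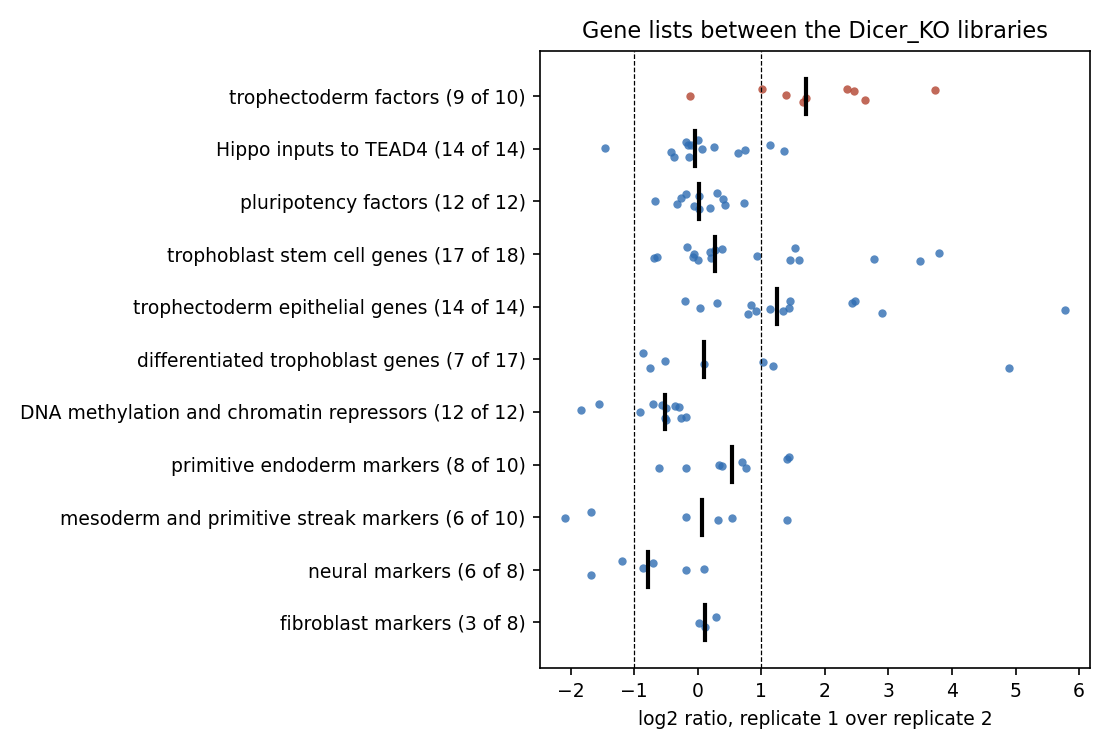
Log2 ratio of replicate 1 over replicate 2 of each gene averaging 10 counts or more, by list (points), with the median of each list (black bar), dashed lines at 2-fold and, in brackets, the number of genes drawn of those listed. The trophectoderm factors (red, median 1.71) and the epithelial genes (median 1.24) lie furthest to the right, and the neural markers (median -0.78) and repressor genes (median -0.51) furthest to the left.

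Several factors also act in other embryonic cells, so markers of those cells are given beside them, those beyond 2-fold and the lineage genes being named after their values were seen. Of 10 primitive endoderm markers, 8 had enough counts and 2 (Dab2 and Gata6) were more than 2-fold higher in replicate 1. Their summed level was 200.0 CPM in replicate 1 and 143.8 CPM in replicate 2, led by Lamb1 (4523 and 2550 counts). Among its lineage genes Gata4 had 586 and 318 counts and Pdgfra 83 and 87, while Sox17 (14 and 10), Sox7 (7 and 4) and Foxa2 (6 and 1) were near the floor. Of 10 mesoderm and primitive streak markers, 6 had enough counts, Gsc was more than 2-fold higher, and Kdr (90 and 353, log2 ratio -2.08) and Evx1 (128 and 379, -1.68) more than 2-fold lower. These summed to 10.2 and 21.6 CPM, with T, the defining marker, at 3 and 2 counts, and the mesodermal genes lay on both sides of 0, with a median log2 ratio of 0.07.

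Of 8 neural markers, 6 had enough counts and 2, Otx2 (2515 and 5266 counts, log2 ratio -1.19) and Tubb3 (559 and 1653, -1.68), were more than 2-fold lower in replicate 1. The other 4 lay within 2-fold, Sox1 at 0.09, Nes at -0.19, Pax6 at -0.70 and Map2 at -0.86. Summed over the list, the levels were 138.7 and 246.0 CPM, of which Otx2 alone held 60.3 and 126.7 CPM. The median log2 ratio of the 6 was -0.78. Neurog2 had 0 and 1 count. Of 8 fibroblast markers, relevant where feeder cells are present, 3 had enough counts and all 3 lay within 2-fold. Thy1 led their summed 24.9 and 19.7 CPM with 823 and 621 counts, and Postn was at 0 in both libraries. Dcn, named after its values were seen, averaged just under 10 counts, with 0 in replicate 1 and 19 in replicate 2. The part of other cell types in the factors' ratios was not tested.

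The genes around the factors were compared with the background too. Within 200 kb of a factor, 49 genes averaged 10 counts or more, and 6 of them (12.2%) were more than 2-fold higher in replicate 1, 2 were more than 2-fold lower, and their median log2 ratio was 0.03. That share is near the 14.2% of all genes. Elf5 had the largest share, with 2 of its 3 measured neighbours more than 2-fold higher, Ehf and Abtb2 (477 and 181 counts, log2 ratio 1.27), and Cat within 2-fold (0.27). Another 5 annotated genes overlap Gata3, Tfap2a or Tead4, and each had at most 1 count in either library. Reads in overlapping regions were ignored in the counting, so these low counts do not show whether the overlaps lowered the factors' own counts.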

How the data were processed

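PolyA RNA was sequenced from 2 Dicer_KO mESC libraries prepared with a reverse-stranded protocol. The authors trimmed reads with Trimmomatic, and the submitters' processing notes name STAR 2.4.2a, featureCounts 1.4.5-p1 and the build mm10 (GRCm38). They deposited raw counts per Ensembl gene for each library. The strand setting of the counting and its treatment of reads that map to several places are not given in the sources used here, and reads in overlapping genes were ignored.

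CPM were taken over 41710122 and 41566184 counts with 95% Wilson intervals, and RPKM over the union of exons in GENCODE M21, whose symbols and positions matched 42548 of 43629 listed genes. Ratios used edgeR 4.0.16 TMM scaling (R 4.3.3) and a pseudocount of 1, for genes averaging 10 counts or more, and their intervals are exact binomial. DESeq2 1.42.0 size factors were an alternative, beside other scalings, pseudocounts, count minimums, detection limits and lengths. The planned comparison was of levels without tests, since each passage has 1 library. The ratio script was tested on simulated data. The study made independent lines with different deletions, but the labels do not say which line each library came from. The samples carry 1 genotype label, so no groups were compared. The members and gene lists were chosen with earlier results of these data known. Named genes are the members, their families and Dicer1 and, in other lists, the genes with the highest and lowest mean CPM and up to 4 beyond 4-fold. The study's wild-type values were not used here.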

Additional observations from a re-analysis of the deposited data

How the results depend on the processing

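No paired analysis was possible because the samples share a single condition. No factor's log2 ratio changed sign with DESeq2 size factors, total counts or a pseudocount of 0.1. With a library left out, the level of a factor is that of the other library, and for Hand1 it was 5.49 or 0.361 CPM. The number of factors detected in both libraries was 4 at 1 CPM, 2 at 5 CPM and 5 at 0.5 CPM, and 4 to 9 with replicate 1 or replicate 2 left out (4 without replicate 1, 9 without replicate 2). The number more than 2-fold higher in replicate 1 was 8 of 9, 4 of 9 at 4-fold, 5 of the 6 averaging 50 counts or more and 9 of 10 without a filter. Over all genes measured, 14.2% were more than 2-fold and 4.17% more than 4-fold higher. The shares of all genes at 50 counts, without a filter and at 5 or 0.5 CPM were not computed. The factor added without a filter was Cdx2, whose counting interval included 0. With the longest transcript as length, 5 of 10 factors held their place in the order of levels, Gata3 and Elf5 changed places and Hand1 came 5th. Scaling by total counts moved the median log2 ratio of all genes from 0.02 to 0.14 and that of the factors from 1.71 to 1.82, and over all alternatives the factors' median ran from 1.53 to 1.82. The ratio cannot be computed with a library left out. Depth limits Cdx2 most, with 6 and 1 counts.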
